A study of Mus musculus with 12 samples.

Results

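The response of mouse embryonic stem (ES) cells to 1 day of retinoic acid (RA) was read from 6 of the 12 arrays of the series, chosen by their titles and labels. All 6 came from the E14 ES cell line transduced with a control short hairpin, shCT. Of these, 3 arrays held cells at day 0 with no RA, and 3 held cells at day 1 with RA; the labels write the agent as RA, read here as retinoic acid, and give no dose. The other 6 arrays are the same pair of conditions in E14 cells carrying shLOXL2, a hairpin named for LOXL2. They serve below as the same comparison under another hairpin, not as a repeat in control cells. No group was kept for a day without RA, so the effect of RA and that of a day of further culture cannot be told apart, and "with RA" below stands for both. Every shCT array carries the hairpin vector, so none shows untransduced cells. The labels do not say whether the replicates were separate cultures, so a p-value here reflects the spread among arrays of a group, which may be technical only.

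Retinoic acid is a small lipid made from vitamin A that enters the nucleus and binds retinoic acid receptors, which sit on DNA as partners of the RXR proteins. Without ligand these pairs recruit co-repressors, and with ligand they recruit co-activators to the same sites. ES cells are kept undifferentiated by leukaemia inhibitory factor (LIF), which signals through the gp130 receptor and STAT3, while FGF and ERK signalling moves them toward differentiation, and retinoic acid is a standard means of starting that exit in culture. The Hox, retinoid-pathway and core pluripotency genes are the textbook readouts of this treatment; the description here turns to the other pathways and gene families.

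Levels are log2 array signals, and every change is the mean with RA minus the mean without RA, in log2 units with its standard error (n = 3 arrays a group). Tests are limma's moderated tests over 22180 genes with Benjamini-Hochberg adjustment, and a gene is said to have risen or fallen where its adjusted p was under 0.05. The 6 arrays correlated with each other at 0.949 to 0.985 over transcript clusters. Between 11 and 12 of 12 ES cell marker genes lay above the array's median gene on each shCT array, so the cells matched their label at both times. Of those 12 markers, Pou5f1, Fgf4 and Zfp42 fell and none rose, and none was called after a second quantile normalization. Calls that ended when 1 array was left out were those of Pou5f1 (adjusted p up to 0.102), Fgf4 (adjusted p up to 0.0893) and Zfp42 (adjusted p up to 0.152); the arrays were replicates 1, 2 and 3 of shCT without RA, replicates 1, 2 and 3 of shCT with RA, replicates 1, 2 and 3 of shLOXL2 without RA and replicates 2 and 3 of shLOXL2 with RA. The arrays numbered 3 of both shCT groups deviated together from their group means (correlation 0.631), and small nucleolar and nuclear RNA signals were lowest on them, with list medians of 9.49, 9.08 and 8.48 without RA and 9.03, 8.69 and 8.24 with RA. Their part in the results was not tested beyond leaving them out, as described with the counts.

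In shCT cells 480 genes rose and 463 fell with RA, 943 of 22180 in all (4.25%; 2.16% rose and 2.09% fell). For each of the 943 the 3 arrays with RA lay wholly above or wholly below the 3 without. Over all genes 21.2% had groups that did not overlap. A lack of overlap given below for a called gene is thus shared by every call and is no further support. The change exceeded 1 log2 unit for 252 of them. Brighter genes were called more often, at 6.76% of genes above the median mean level (3.22% rose and 3.54% fell) against 1.74% of those below it (1.11% rose and 0.631% fell). The even split depended on scaling: with each array centred on its median, 1206 genes passed, of which 27.9% rose, against 50.9% as deposited, and the median of all genes moved from 0.001 to -0.101. List medians and counts below are on the deposited scale, and a list whose balance of rises and falls turned under centring is named as such. Dropping replicate 2 of the shCT cells at day 0 gave 483 calls, and dropping replicate 1, 2 or 3 at day 1 gave 512, 555 or 561; with both shCT arrays numbered 3 left out it was 441. In all, 395 of the 943 calls held without each of the 12 arrays and 548 were lost without at least 1. The Hox, retinoid and pluripotency lists held 53 of the called genes, so most calls lay elsewhere. Counts of the other lists below include genes of the retinoid and pluripotency lists that also belong to them. Examples are Cdx1 in the Wnt effector list, Etv5 in the ERK list and Fgf4 in the FGF list.

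**Figure D1:**
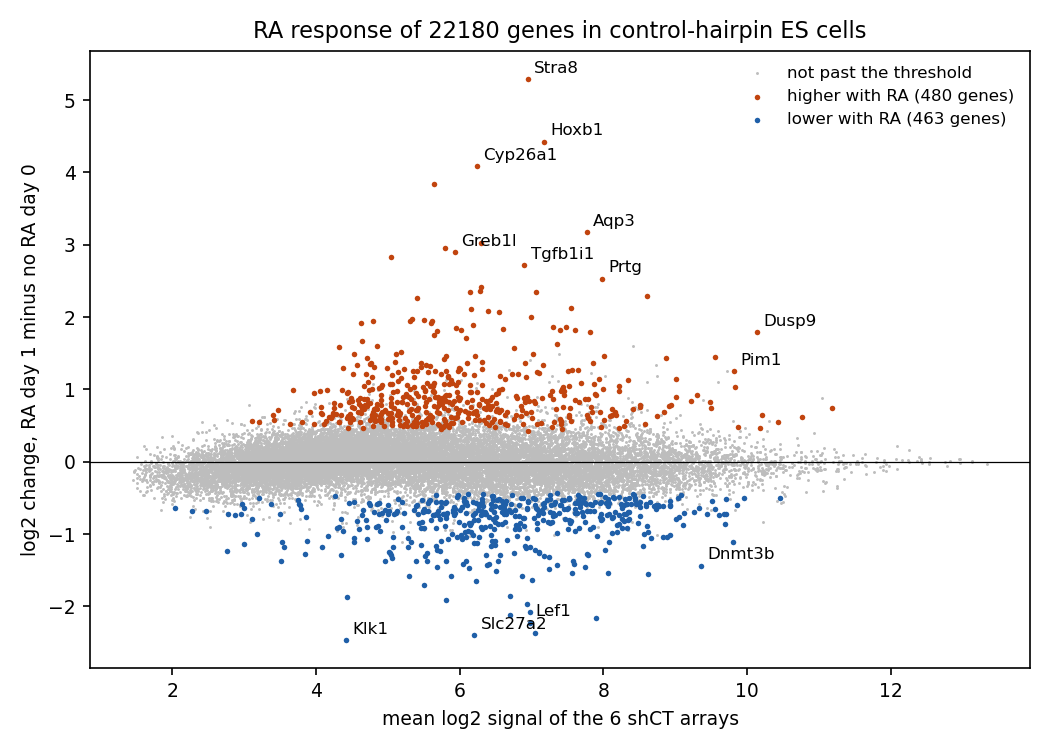
Change with RA in shCT cells (y axis, log2 with RA minus without) against the mean level over the 6 shCT arrays (x axis, log2), 1 point per gene, 22180 genes; coloured points are the 480 genes that rose and the 463 that fell (limma, adjusted p under 0.05). Called genes lie at both signs, with Hoxb1, Cyp26a1 and Stra8 labelled as known RA targets.

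Outside the Hox and retinoid genes, the largest rises included a water channel, a matrix-adhesion adaptor, a myelin protein and several transcription factors. Aqp3, an aquaglyceroporin that passes water and glycerol, read 6.49, 6.23 and 5.84 without RA and 9.49, 9.42 and 9.17 with RA, so its lowest array with RA was well above its highest without (change 3.17 ± 0.16, adjusted p = 1.18e-07). Greb1l, a close relative of the hormone-responsive gene Greb1, read 4.39, 4.34 and 4.72 without RA and 7.42, 7.48 and 7.24 with RA (change 2.90 ± 0.20). Tgfb1i1, which encodes the focal-adhesion adaptor Hic-5, read 5.55, 5.69 and 5.38 without RA and 8.31, 8.65 and 7.82 with RA (change 2.72 ± 0.20). None of these groups overlapped, as for every call. Prtg (protogenin, an immunoglobulin-family receptor of the early embryo) rose by 2.53 ± 0.21, and Pmp22, a membrane protein of myelin and epithelial junctions, by 2.36 ± 0.19. Cd37, a tetraspanin known from B cells, rose by 2.35 ± 0.15, and Calcoco2, an autophagy receptor, by 2.30 ± 0.21. Lefty1, a secreted inhibitor of Nodal, read 6.53, 6.11 and 6.81 without RA and 8.59, 8.29 and 8.95 with RA (change 2.13 ± 0.25). Nt5e, the cell-surface enzyme that makes adenosine from AMP, rose by 2.09 ± 0.14, and Cidea, a lipid-droplet protein, by 1.94 ± 0.18. Foxa1, a pioneer factor of endoderm, read 5.57, 5.70 and 5.26 without RA and 7.41, 7.69 and 7.63 with RA (change 2.07 ± 0.21), and Olig3, a neural tube bHLH factor, rose by 1.95 ± 0.25. The highest adjusted p among these 12 genes was 0.000433. Each call held without each array, and each of the 12 was also higher with RA in shLOXL2 cells, for example by 2.92 for Aqp3 and 2.01 for Foxa1.

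Retinoic acid receptors bind direct repeats of a hexamer, so promoters were searched for 2 hexamers in the same direction, each AGGTCA with G also allowed at the first base and T at the third, with 5, 2 or 1 bases of any letter between them (called DR5, DR2 and DR1), on both strands. Promoters were the 250 bases before to 50 after the start in the RefSeq table for GRCm38.p6, which held 16918 of the genes tested, 370 that rose and 346 that fell. The repeats found at genes that rose are shown 5′ to 3′ on the gene's strand, with both hexamers in capitals and up to 20 flanking bases from the window; where the repeat is on the opposite strand the capitals are its reverse complement:
Cyp26a1 (DR5, opposite strand, chr19:37697756-37697812): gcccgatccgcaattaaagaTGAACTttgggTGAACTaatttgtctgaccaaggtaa
Rarb (DR5, gene strand, chr14:16575493-16575549): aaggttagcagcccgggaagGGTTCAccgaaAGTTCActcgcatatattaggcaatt
Ppbp (DR5, opposite strand, chr5:90768268-90768308): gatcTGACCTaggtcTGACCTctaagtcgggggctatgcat
Tinagl1 (DR2, gene strand, chr4:130175196-130175249): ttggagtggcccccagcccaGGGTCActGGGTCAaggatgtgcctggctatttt
Ano1 (DR2, opposite strand, chr7:144738612-144738665): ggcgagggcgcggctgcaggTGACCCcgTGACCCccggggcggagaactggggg
Slc25a21 (DR2, opposite strand, chr12:57197563-57197616): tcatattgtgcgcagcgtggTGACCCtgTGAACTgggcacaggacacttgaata
The DR5 repeat stood in 12 of the 16918 promoters (0.0709%) and in 3 of the 370 at genes that rose (0.811%), namely Cyp26a1, Rarb and Ppbp. The DR2 repeat stood in 17 promoters (0.1%) and in 3 at genes that rose (0.811%), namely Tinagl1, Ano1 and Slc25a21. Neither stood at any of the 346 genes that fell. DR1 stood in 40 promoters (0.236%), none of them at a called gene, and a single AGGTCA in 16.4% of all promoters, 15.9% of those at genes that rose and 17.6% of those at genes that fell. Counts of 3 are small, a match is only a description of the letters, and sites with other hexamers or farther from the start were not searched.

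Of the genes so marked, Cyp26a1 (the enzyme that breaks down retinoic acid) and Rarb (a receptor for it) are the known targets of the pathway. Ppbp, a platelet chemokine precursor, read 3.73, 3.71 and 3.64 without RA and 4.25, 4.50 and 4.58 with RA (change 0.75 ± 0.19, adjusted p = 0.0401). Tinagl1, a secreted basement-membrane protein, changed by 1.25 ± 0.17, and Ano1, a calcium-activated chloride channel, by 1.30 ± 0.16. Slc25a21, the mitochondrial carrier for oxodicarboxylates, read 3.83, 3.74 and 3.60 without RA and 5.10, 5.10 and 4.90 with RA (change 1.30 ± 0.23, adjusted p = 0.00545). The adjusted p passed the threshold upwards for Ppbp (adjusted p up to 0.148) when 1 array was left out, namely replicates 1, 2 and 3 of shCT without RA, replicates 1, 2 and 3 of shCT with RA, replicates 2 and 3 of shLOXL2 without RA and replicate 3 of shLOXL2 with RA.

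Among the largest falls were a serine protease, a fatty-acid transporter and a cytosolic RNA sensor. Klk1 (tissue kallikrein) changed by -2.46 ± 0.18, Slc27a2 (a fatty-acid transporter and acyl-CoA synthetase) by -2.39 ± 0.18 and Lef1 (a nuclear partner of beta-catenin) by -2.22 ± 0.21. Ddx58, which encodes the viral-RNA sensor RIG-I, read 6.69, 6.92 and 6.71 without RA and 4.97, 4.74 and 4.87 with RA (change -1.91 ± 0.12, adjusted p = 1.75e-06), with no overlap between the groups. Hmces, which protects abasic sites in single-stranded DNA, read 8.06, 7.99 and 7.73 without RA and 6.10, 5.94 and 5.85 with RA (change -1.96 ± 0.16). Tgm3, a transglutaminase of the epidermal barrier, read 6.58, 6.56 and 5.93 without RA and 4.69, 4.75 and 4.52 with RA (change -1.71 ± 0.19). Grhl2, a grainyhead factor that maintains epithelial junction genes, fell by 1.57 ± 0.15, Glod5 by 1.87 ± 0.25 and Enox1, a cell-surface oxidase, by 1.63 ± 0.13. The highest adjusted p among the named falls was 0.00062, and none of these calls was lost without any 1 array. Lrrc34 also fell (-1.65 ± 0.35, adjusted p = 0.0172). Single arrays decided the calls of Lrrc34 (adjusted p up to 0.0901), and those arrays were replicates 2 and 3 of shCT without RA and replicates 1 and 2 of shCT with RA.

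The LIF, gp130 and STAT3 pathway was among the lists with most calls, at 29.4%, against 4.25% of all genes and 6.76% of genes above the median level. Of its 34 measured genes 3 rose and 7 fell (median change 0.05, against 0.001 over all genes). Those that rose were Pim1 (1.25 ± 0.12), Cntfr (1.82 ± 0.20) and Jak2 (1.10 ± 0.25), and those that fell were Pim2 (-1.29 ± 0.16), Il6st (-0.59 ± 0.11), Stat3 (-0.61 ± 0.12), Socs2 (-1.27 ± 0.24), Socs3 (-0.71 ± 0.14), Lifr (-0.79 ± 0.16) and Pim3 (-0.59 ± 0.14). At the receptor level, Cntfr, the receptor subunit for ciliary neurotrophic factor, read 6.57, 6.62 and 6.27 without RA and 8.35, 8.55 and 8.01 with RA, and Il6st, which encodes gp130, read 8.87, 8.89 and 8.93 without RA and 8.41, 8.18 and 8.32 with RA. The transcription factor Stat3 read 9.13, 9.05 and 8.96 without RA and 8.58, 8.41 and 8.31 with RA. The groups did not overlap for Cntfr, Il6st or Stat3, as for every call. Pim1, a kinase gene that STAT3 is known to switch on, read 9.22, 9.06 and 9.32 without RA and 10.33, 10.54 and 10.48 with RA (adjusted p = 3.38e-05), and its relative Pim2 read 8.57, 8.61 and 8.10 without RA and 7.23, 7.29 and 6.90 with RA (adjusted p = 0.000329). The feedback inhibitor Socs2 read 7.71, 8.81 and 8.70 without RA and 7.09, 7.19 and 7.11 with RA and is the SOCS member whose call held throughout. Of these calls, Socs3 (adjusted p up to 0.0573), Lifr (adjusted p up to 0.0659), Pim3 (adjusted p up to 0.131) and Jak2 (adjusted p up to 0.106) did not hold without every array; the deciding arrays were replicates 1 and 2 of shCT without RA and replicates 1, 2 and 3 of shCT with RA. The 10 calls became 6 without replicate 3 of shCT with RA, 1 array being left out at a time.

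In FGF and ERK signalling, 4 of 27 feedback regulators rose and 5 fell, and 2 of 31 FGF ligands and receptors rose and 2 fell. Of 31 immediate early genes 4 rose and 5 fell (6 and 5 after a second quantile normalization). Called shares were 33.3%, 12.9% and 29%, against 4.25% of all genes and 6.76% of those above the median level. ERK activity induces the Sprouty and dual-specificity phosphatase genes, which then damp it. Spry2 read 9.42, 9.09 and 8.88 without RA and 8.27, 8.06 and 7.59 with RA (change -1.16 ± 0.17) and Spry4 read 9.54, 9.54 and 9.25 without RA and 8.49, 8.76 and 8.04 with RA (change -1.02 ± 0.18). Dusp9, a phosphatase that acts on ERK, read 9.69, 9.20 and 8.83 without RA and 11.26, 11.02 and 10.83 with RA (change 1.79 ± 0.18). Rasgrp2, an activator of Ras-family GTPases, changed by -1.17 ± 0.17, and the ligand Fgf17 by -1.43 ± 0.21. Among immediate early genes, which serum and growth factors induce within minutes, Egr1 read 7.77, 7.95 and 7.55 without RA and 5.57, 5.76 and 5.59 with RA (change -2.12 ± 0.15). Zfp36, which encodes the mRNA-destabilizing protein tristetraprolin, read 6.71, 6.69 and 7.03 without RA and 5.62, 5.58 and 5.86 with RA (change -1.13 ± 0.16). Nr4a1, an orphan nuclear receptor, read 7.99, 8.11 and 8.07 without RA and 7.32, 7.45 and 7.31 with RA (change -0.69 ± 0.11), and Ier5l changed by 0.98 ± 0.19. The highest adjusted p among these genes was 0.00881, and each of these 9 calls held without each array, although the counts of the 3 lists changed. With 1 array left out, the calls numbered 1 to 2 for FGF ligands and receptors, against 4 (without replicates 2 or 3 of shCT without RA or replicates 1, 2 or 3 of shCT with RA). For the ERK list, the 9 calls became 4 without replicate 2 of shCT without RA or replicate 1 of shCT with RA, 1 array being left out at a time. For the immediate early list, the 9 calls became 5 without replicate 2 of shCT without RA or replicates 1 or 3 of shCT with RA, 1 array being left out at a time. The remaining rises of the 3 lists were Dusp5 (0.65), Dusp6 (0.74), Spry3 (0.69), Jun (0.83), Ccn1 (0.57), Jund (0.57), Fgfr2 (0.79) and Fgfr1 (0.48). The remaining falls were Rasgrp1 (-0.70), Zfp36l1 (-0.64), Myc (-0.79), Fgf4 (-0.61) and Etv5. Dusp5, Dusp6, Jun, Ccn1, Jund, Fgfr2, Fgfr1, Myc and Fgf4 each lost their call without at least 1 array. Both directions thus occurred in each list.

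**Figure D2:**
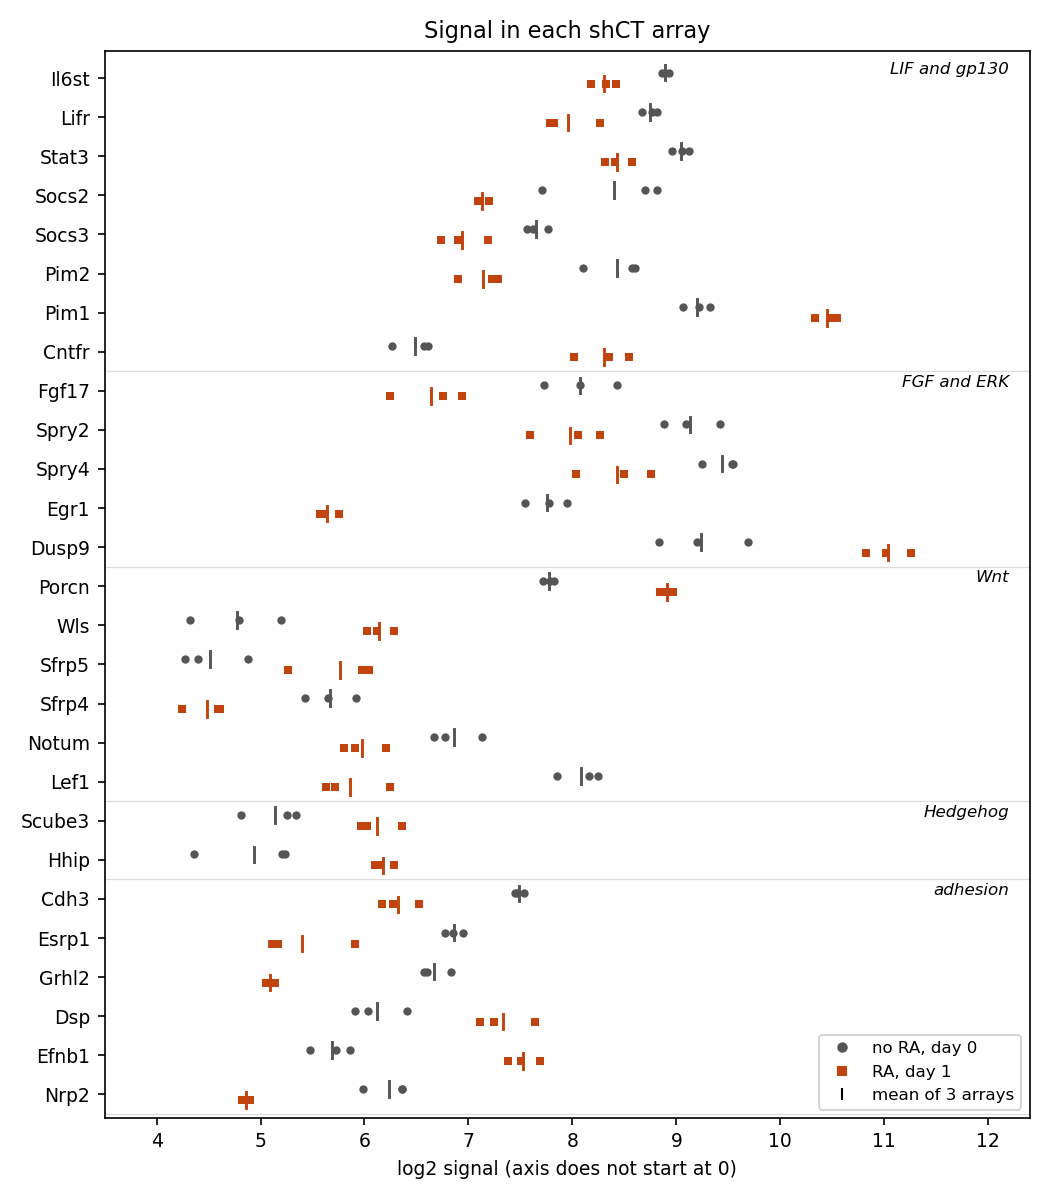
Level on each shCT array (points, log2 signal) for genes of the signalling pathways described in the text, without RA and with RA, with the mean of each group of 3 marked. The groups do not overlap for the genes named as having risen or fallen, as for every called gene.

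Wnt genes moved in both directions, with calls at each step from secretion to the nucleus. Of 25 Wnt ligands and secretion genes 3 rose and none fell, of 35 receptors and extracellular inhibitors 2 rose and 4 fell, and of 27 intracellular effectors and targets 3 rose and 2 fell (2 and 2 with centred arrays). The medians of the lists were 0.24, 0.09 and 0.11. Called shares were 12%, 17.1% and 18.5%, against 4.25% of all genes and 6.76% of those above the median level. Leaving out 1 array changed the number of calls to 3 for the effectors and targets, against 5 (without replicates 2 or 3 of shCT without RA or replicate 1 of shCT with RA). Porcn, the acyltransferase that lipidates Wnt proteins, read 7.83, 7.72 and 7.78 without RA and 8.91, 8.97 and 8.85 with RA (change 1.14 ± 0.12). Wls, the carrier that brings them to the surface, read 4.32, 4.79 and 5.20 without RA and 6.02, 6.12 and 6.28 with RA (change 1.37 ± 0.25). Outside the cell, Sfrp5, a secreted decoy, changed by 1.24 ± 0.21, its relative Sfrp4 by -1.18 ± 0.17, and Notum, which removes the Wnt lipid, by -0.89 ± 0.15. The receptor Fzd5 read 8.43, 8.25 and 8.23 without RA and 7.41, 7.46 and 7.35 with RA (change -0.90 ± 0.14). In the nucleus, Lef1 read 8.16, 8.25 and 7.85 without RA and 5.71, 6.24 and 5.63 with RA (change -2.22 ± 0.21), whereas Pygo1, a co-activator of beta-catenin, read 4.67, 4.23 and 4.84 without RA and 5.65, 5.60 and 5.83 with RA (change 1.11 ± 0.15). No adjusted p among these 8 genes was above 0.00687. Also called were Wnt3 (0.65 ± 0.13), Rnf43 (0.61 ± 0.14), Lgr4 (-0.68 ± 0.17), Tle4 (-0.55 ± 0.12) and Sp8 (0.58 ± 0.14). Calls that ended when 1 array was left out were those of Wnt3 (adjusted p up to 0.0693), Rnf43 (adjusted p up to 0.142), Lgr4 (adjusted p up to 0.156), Tle4 (adjusted p up to 0.103) and Sp8 (adjusted p up to 0.14); the arrays were replicates 2 and 3 of shCT without RA, replicates 1, 2 and 3 of shCT with RA, replicate 2 of shLOXL2 without RA and replicates 2 and 3 of shLOXL2 with RA.

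In Hedgehog signalling 5 of 21 genes rose and 1 fell (median 0.17). The share called was 28.6%, against 4.25% of all genes and 6.76% of those above the median level. Scube3, a secreted protein of a family that helps release Hedgehog ligands, read 5.35, 5.26 and 4.81 without RA and 5.97, 6.03 and 6.36 with RA (change 0.98 ± 0.17), and Hhip, a membrane decoy for the ligands, read 4.36, 5.21 and 5.24 without RA and 6.10, 6.29 and 6.15 with RA (change 1.24 ± 0.23). The other calls were the co-receptor Gas1 (0.62 ± 0.14), the transducer Smo (0.65 ± 0.16) and the transcription factors Gli2 (-0.61 ± 0.16) and Gli3 (0.70 ± 0.15). Ptch1 and Gli1, the usual transcriptional readouts of an active pathway, changed by 0.29 ± 0.13 and -0.38 ± 0.15 and did not pass (adjusted p = 0.258 and 0.227). The adjusted p passed the threshold upwards for Gli3 (adjusted p up to 0.087), Gas1 (adjusted p up to 0.127), Smo (adjusted p up to 0.138) and Gli2 (adjusted p up to 0.186) when 1 array was left out, namely replicates 1, 2 and 3 of shCT without RA, replicates 1, 2 and 3 of shCT with RA, replicates 2 and 3 of shLOXL2 without RA and replicates 2 and 3 of shLOXL2 with RA. The 6 calls became 2 without replicate 2 of shCT without RA or replicate 2 of shCT with RA and 3 without replicates 1 or 3 of shCT with RA, 1 array being left out at a time.

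In the Nodal, activin and TGF-beta list 3 of 36 genes rose and 1 fell (2 and 2 with centred arrays), in the BMP list 1 of 37 rose and 1 fell, and of 35 Notch genes none rose and 1 fell. Called shares were 11.1%, 5.41% and 2.86%, against 4.25% of all genes and 6.76% of those above the median level. Smad6, an inhibitory SMAD, read 4.97, 4.97 and 5.05 without RA and 5.95, 6.16 and 6.16 with RA (change 1.09 ± 0.12, adjusted p = 0.00014). The SMAD co-repressor Ski changed by 0.73 ± 0.12. The Notch call was the ligand Jag1, which read 7.004, 7.20 and 7.08 without RA and 5.47, 5.67 and 5.85 with RA (change -1.43 ± 0.21, adjusted p = 0.00123), with all arrays with RA below all without. Of 56 other receptor tyrosine kinase genes and partners 5 rose and 1 fell (10.7% called, median 0.10). Gfra1 and Gfra3, co-receptors of the GDNF family, changed by 1.26 ± 0.12 and 0.70 ± 0.13, and Pdgfrb, a receptor of mesenchymal cells, by 1.29 ± 0.16. All 6 calls among 44 dual-specificity and receptor-type phosphatases (13.6% called) were rises. The calls, with single arrays left out, numbered 2 for the Nodal, activin and TGF-beta list, against 4 (without replicate 2 of shCT without RA or replicates 1 or 3 of shCT with RA), 3 for the receptor tyrosine kinases, against 6 (without replicate 2 of shCT without RA) and 2 to 3 for the phosphatases, against 6 (without replicates 1 or 2 of shCT without RA or replicates 1, 2 or 3 of shCT with RA).

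Junction genes were called at shares near those of all genes. Of 67 desmosome and keratin genes 3 rose and none fell, of 46 cadherins 1 rose and 2 fell, and of 46 tight junction genes 2 rose and 1 fell. The shares called were 4.48%, 6.52% and 6.52%, against 4.25% of all genes and 6.76% of those above the median level. Dsc2 (desmocollin 2) read 4.25, 4.04 and 3.94 without RA and 5.59, 5.12 and 5.56 with RA (change 1.35 ± 0.17), and Dsp, the plakin that ties desmosomes to keratin, read 5.91, 6.03 and 6.41 without RA and 7.25, 7.11 and 7.64 with RA (change 1.22 ± 0.16). Cdh3 (P-cadherin) read 7.45, 7.47 and 7.54 without RA and 6.16, 6.28 and 6.53 with RA (change -1.16 ± 0.15). Cgnl1, a cytoplasmic protein of tight junctions, changed by 1.21 ± 0.13, and Esrp1, the splicing regulator of the epithelial programme, by -1.46 ± 0.18. The immunoglobulin-family proteins Mcam and Igsf9 changed by -1.02 ± 0.13 and -0.74 ± 0.12. Adjusted p-values of these 7 genes reached at most 0.00286. No collagen of 44 was called, and of 24 laminin and basement membrane genes 1 rose and 3 fell (16.7% called). Among 82 matrix proteases and inhibitors 2 rose and 4 fell (7.32% called), including Mmp9 (1.03 ± 0.14), Adam19 (-1.04 ± 0.13) and Timp2 (1.06 ± 0.18). With 1 array left out, the calls numbered 1 for tight junction genes, against 3 (without replicate 2 of shCT without RA or replicates 1 or 2 of shCT with RA), 5 for desmosome and keratin genes, against 3 (without replicate 1 of shCT without RA or replicate 1 of shLOXL2 without RA), 1 to 2 for laminin and basement membrane genes, against 4 (without replicates 2 or 3 of shCT without RA or replicates 1 or 2 of shCT with RA) and 3 for matrix proteases and inhibitors, against 6 (without replicate 2 of shCT without RA).

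Guidance genes were called in several families. Of 33 semaphorins, plexins and neuropilins 3 rose and 2 fell (2 and 2 with centred arrays), of 21 Eph receptors and ephrins 1 rose and 2 fell, and of 24 Slit, Robo, netrin and Unc5 genes 1 rose and 1 fell. That is 15.2%, 14.3% and 8.33% called, against 4.25% of all genes and 6.76% of those above the median level. Ntn1 (netrin 1, a secreted axon guide) read 7.83, 7.82 and 7.32 without RA and 5.90, 6.17 and 6.17 with RA (change -1.57 ± 0.15). Nrp2, a co-receptor for semaphorins and VEGF, read 5.99, 6.36 and 6.36 without RA and 4.82, 4.87 and 4.90 with RA (change -1.37 ± 0.14), and the ligand Sema3e changed by 1.48 ± 0.21. Epha4 read 8.14, 8.51 and 8.61 without RA and 7.26, 7.40 and 7.52 with RA (change -1.03 ± 0.17), and Epha1 also fell (-0.83 ± 0.13), whereas the ephrin Efnb1 rose (1.84 ± 0.15). Of 84 glycosyltransferases that build cell-surface glycans 2 rose and 4 fell (7.14% called, near the share above the median level). Among them were Gcnt2, which branches the I antigen (-1.41 ± 0.17), and St6gal1, a sialyltransferase (0.96 ± 0.14). The 8 genes had adjusted p-values up to 0.00401. Leaving out 1 array changed the number of calls to 2 to 3 for semaphorins, plexins and neuropilins, against 5 (without replicates 1 or 2 of shCT without RA or replicates 1, 2 or 3 of shCT with RA) and 2 to 3 for glycosyltransferases, against 6 (without replicate 2 of shCT without RA or replicates 1, 2 or 3 of shCT with RA).

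Of 367 solute carriers 10 rose and 11 fell (median 0.01), 5.72% called, which is near the 4.25% of all genes and 6.76% of those above the median level. Slc2a1, the glucose transporter GLUT1, read 10.82, 10.66 and 10.98 without RA and 11.54, 11.49 and 11.66 with RA (change 0.74 ± 0.12). Slc7a3, a transporter of arginine and lysine, read 8.62, 8.96 and 8.91 without RA and 7.31, 7.18 and 7.39 with RA (change -1.53 ± 0.13), and Slc7a8, of neutral amino acids, read 3.92, 3.86 and 4.07 without RA and 5.16, 4.78 and 4.78 with RA (change 0.95 ± 0.14). The groups did not overlap for any of these, as for every call. Slc20a1, a phosphate importer, changed by -0.94 ± 0.12, Slc17a9, which loads ATP into vesicles, by -1.45 ± 0.19, Slc43a3 by 0.83 ± 0.13 and Slc6a16 by 1.85 ± 0.23. Of 50 mitochondrial carriers 4 rose and none fell (8% called), among them Slc25a24, which exchanges ATP for phosphate (1.05 ± 0.20). The highest adjusted p among these 8 genes was 0.00707, and each of the 8 calls held without each array. The calls, with single arrays left out, numbered 13 for solute carriers, against 21 (without replicate 2 of shCT without RA or replicate 1 of shCT with RA) and 2 for mitochondrial carriers, against 4 (without replicate 2 of shCT without RA, replicates 2 or 3 of shCT with RA or replicate 2 of shLOXL2 with RA).

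Metabolic calls were scattered over pathways and included none of the 22 cholesterol synthesis genes and none of the 79 respiratory chain and ATP synthase genes. Of 97 phospholipid, phosphoinositide and sphingolipid enzymes 4 rose and 4 fell (8.25% called, against 4.25% of all genes and 6.76% of those above the median level). Dgka, a diacylglycerol kinase, read 8.98, 8.99 and 9.22 without RA and 7.88, 7.87 and 8.45 with RA, lower on every array with RA. Plce1, a phospholipase C, changed by 1.25 ± 0.17, and Agpat3, an acyltransferase, by 0.98 ± 0.13. Acsl5, which activates long-chain fatty acids, read 5.89, 6.11 and 5.79 without RA and 4.78, 5.02 and 5.23 with RA (change -0.92 ± 0.15). Sat1, the rate-limiting enzyme of polyamine breakdown, read 6.99, 7.40 and 7.41 without RA and 6.65, 6.24 and 6.37 with RA (change -0.85 ± 0.15). Cbr3, a carbonyl reductase, changed by -1.09 ± 0.20, and Atp1b1, the beta subunit of the sodium pump, by -0.87 ± 0.14. Of 52 lysosomal genes 1 rose and 5 fell (11.5% called). Scarb2, a lysosomal membrane receptor, changed by -1.18 ± 0.12. Tfe3, a transcription factor that drives lysosomal genes, changed by -0.99 ± 0.18. Among these 9 genes the adjusted p was at most 0.0066. With 1 array left out, the calls numbered 5 to 13 for phospholipid, phosphoinositide and sphingolipid enzymes, against 8 (without replicate 1 of shCT with RA or replicate 1 of shLOXL2 without RA) and 2 to 3 for lysosomal genes, against 6 (without replicates 1 or 2 of shCT without RA or replicates 2 or 3 of shCT with RA).

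Genes of the interferon response and cytosolic RNA sensing were mostly lower where called, with 1 of 46 rising and 7 falling (median -0.07). The share called was 17.4%, against 4.25% of all genes and 6.76% of those above the median level. Beside Ddx58, Trim25, the ubiquitin ligase that activates RIG-I, read 7.84, 7.95 and 8.08 without RA and 7.09, 7.03 and 7.23 with RA (change -0.84 ± 0.11, adjusted p = 0.000626). Bst2, the surface protein tetherin, read 6.75, 6.73 and 6.54 without RA and 5.89, 5.97 and 5.94 with RA (change -0.74 ± 0.14, adjusted p = 0.00782). The remaining calls were Ifitm1 (-1.01 ± 0.22), Ifitm2 (-0.81 ± 0.20), Ifitm3 (-0.76 ± 0.16), Oas1g (-1.18 ± 0.30) and Oasl2 (0.66 ± 0.16), the Ifitm genes encoding membrane proteins that are abundant in stem cells as well as induced by interferon. The Ifitm genes lie side by side and are similar in sequence, so their probes may share signal. The other RNA sensor Ifih1 changed by -0.13 ± 0.19 and the adaptor Mavs by -0.26 ± 0.13, and neither passed (adjusted p = 0.816 and 0.353). Single arrays decided the calls of Ifitm1 (adjusted p up to 0.0994), Ifitm2 (adjusted p up to 0.15), Ifitm3 (adjusted p up to 0.0989), Oas1g (adjusted p up to 0.187) and Oasl2 (adjusted p up to 0.162), and those arrays were replicates 2 and 3 of shCT without RA, replicates 1, 2 and 3 of shCT with RA, replicates 2 and 3 of shLOXL2 without RA and replicates 1, 2 and 3 of shLOXL2 with RA. The 8 calls became 3 without replicate 2 of shCT without RA, 4 without replicate 3 of shCT without RA or replicates 1 or 2 of shCT with RA and 5 without replicate 3 of shCT with RA, 1 array being left out at a time.

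Cell-cycle calls were among G1 regulators, of which 2 of 37 rose and 4 fell. None of 49 mitotic genes and none of 26 replication-dependent histones was called, and 1 of 49 DNA replication genes rose. The G1 list had 16.2% called, against 4.25% of all genes and 6.76% of those above the median level. Ccnd2 (cyclin D2) read 6.07, 6.83 and 6.75 without RA and 8.29, 8.51 and 8.43 with RA (change 1.86 ± 0.19). Its kinase partner Cdk6 read 7.11, 7.29 and 7.54 without RA and 6.14, 6.24 and 6.47 with RA (change -1.03 ± 0.15). Mxd4, which competes with MYC for its partner MAX, read 4.90, 5.24 and 5.17 without RA and 6.28, 6.07 and 6.11 with RA (change 1.05 ± 0.13). The other calls were Ccnd1 (-0.86 ± 0.18), Cdk2 (-0.59 ± 0.12) and Myc (-0.79 ± 0.17). Of these calls, Ccnd1 (adjusted p up to 0.0814), Cdk2 (adjusted p up to 0.0789) and Myc (adjusted p up to 0.0981) did not hold without every array; the deciding arrays were replicate 2 of shCT without RA and replicates 1, 2 and 3 of shCT with RA. The 6 calls became 3 without replicate 2 of shCT without RA, 1 array being left out at a time. Of 57 ribosome biogenesis genes none rose and 5 fell (8.77% called), with a list median of -0.29, and Rrp1b, a nucleolar protein, was the call that held without each array (-0.59 ± 0.11, adjusted p = 0.0076). That count was 15 with arrays centred on their medians and ranged from 1 to 7 with 1 array left out; it was 1 without replicate 2 of shCT without RA or replicates 1 or 3 of shCT with RA, 2 without replicate 1 of shCT without RA or replicate 2 of shCT with RA and 3 without replicate 2 of shLOXL2 without RA or replicate 3 of shLOXL2 with RA, 1 array being left out at a time. None of 66 cytosolic ribosomal protein genes, 32 unfolded protein response genes, 19 tRNA synthetases, 19 connexins and pannexins or 18 linker histone and HMG genes was called.

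**Figure D3:**
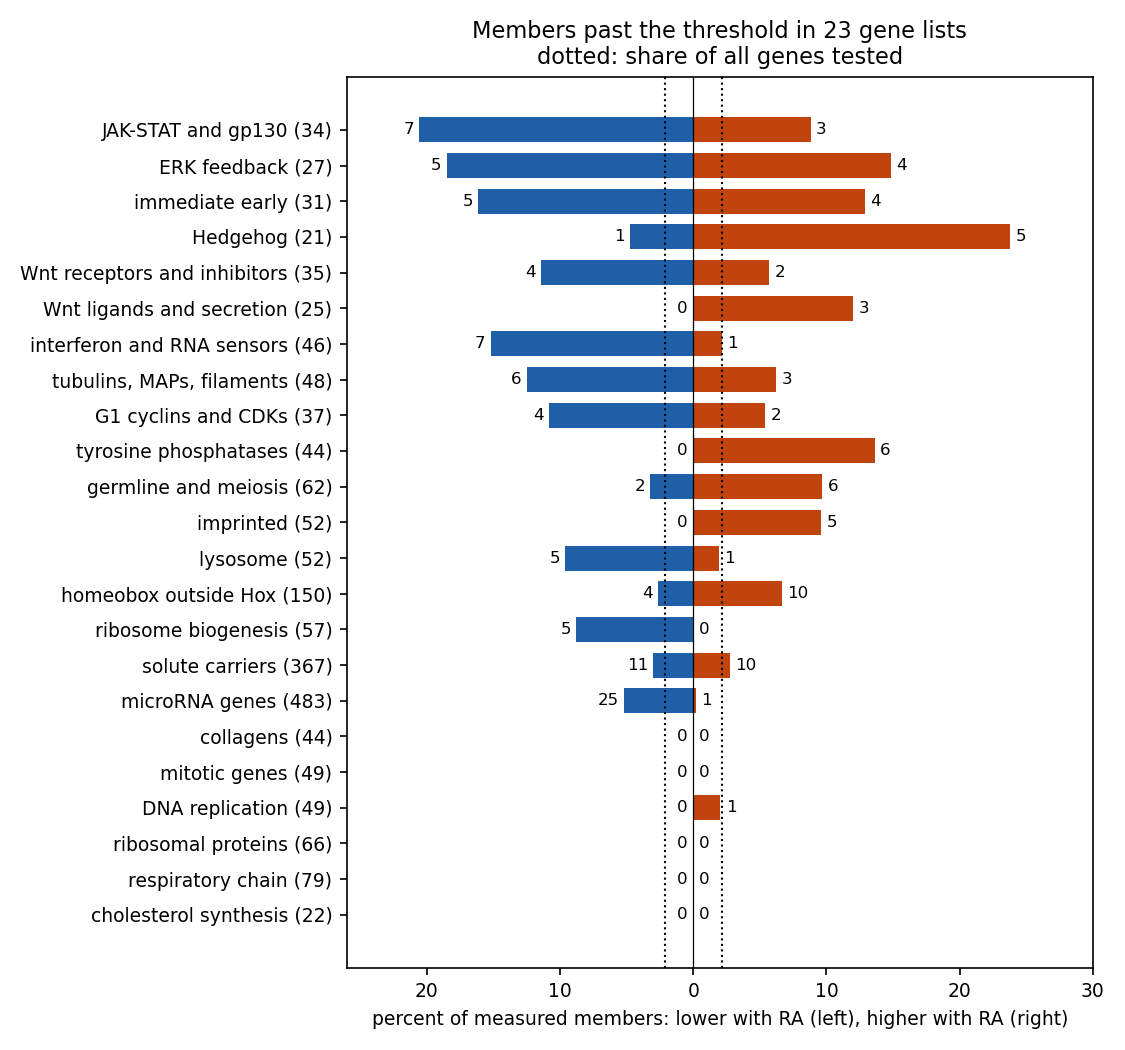
Share of measured genes that rose (to the right) or fell (to the left) with RA in shCT cells, in percent, for gene lists described in the text; the dotted lines mark the shares over all 22180 genes, 2.16% and 2.09%. The lists were chosen with earlier results of these data known, so the bars are a description.

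Homeobox genes outside the Hox clusters gave 10 rises and 4 falls of 150 (median 0.15), and 4 of 25 GATA and T-box genes rose with none falling. That is 9.33% and 16% called, against 4.25% of all genes and 6.76% of those above the median level. Among the homeobox calls are Cdx1 of the retinoid list and Otx2 and Pou5f1 of the pluripotency list. Tbx3 of the pluripotency list is among the T-box rises. Emx2, a forebrain homeobox gene, read 3.75, 3.66 and 3.54 without RA and 4.89, 4.55 and 4.49 with RA (change 0.997 ± 0.16). Dlx3, known from placenta and skin, read 5.82, 5.68 and 5.49 without RA and 6.39, 6.84 and 6.64 with RA (change 0.96 ± 0.14). The zinc-finger homeobox genes Zfhx2 and Zfhx3 changed by 1.04 ± 0.12 and 0.89 ± 0.14, and Tbx4, a hindlimb T-box gene, by 0.65 ± 0.13. Of 39 nuclear receptors other than RAR and RXR 1 rose and 4 fell (12.8% called), the falls including Nr5a2 and Nr0b1 of the pluripotency list. Nr6a1, the germ cell nuclear factor that represses Oct4 during differentiation, read 6.17, 6.04 and 6.25 without RA and 6.82, 6.84 and 6.91 with RA (change 0.71 ± 0.11). Nr1d1, the clock repressor REV-ERB alpha, read 7.55, 7.67 and 7.41 without RA and 6.68, 6.65 and 6.52 with RA (change -0.93 ± 0.12). Among zinc-finger factors, Glis2 changed by 0.88 ± 0.13 and Bnc2 by -1.24 ± 0.17. All 9 adjusted p-values were at or below 0.0105. Leaving out 1 array changed the number of calls to 7 to 9 for homeobox genes, against 14 (without replicate 2 of shCT without RA or replicates 1, 2 or 3 of shCT with RA) and 2 for GATA and T-box genes, against 4 (without replicate 2 of shCT without RA or replicate 1 of shCT with RA).

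Of chromatin regulators, 3 of 22 DNA methylation genes fell and none rose, 3 of 35 Polycomb genes rose and 2 fell, and 4 of 80 histone methyltransferases and demethylases rose and 2 fell. In all 13.6%, 14.3% and 7.5% were called, against 4.25% of all genes and 6.76% of those above the median level. These falls include Dnmt3b, Dnmt3l and Prdm14 of the pluripotency list. With centred arrays the balance of the Polycomb and the histone methyltransferase and demethylase lists turned, to 2 rises and 5 falls and to 3 rises and 6 falls. Dnmt3b, a de novo DNA methyltransferase, read 10.30, 10.18 and 9.77 without RA and 8.93, 8.65 and 8.36 with RA (change -1.44 ± 0.17). Nsd2, which dimethylates histone H3 lysine residues in gene bodies, changed by 0.73 ± 0.12, and the SMYD-family methyltransferase genes Smyd2 and Smyd4 by 0.97 ± 0.15 and 0.91 ± 0.16. Yaf2, a subunit of variant Polycomb complexes, changed by 1.01 ± 0.19, and Arid5b, a cofactor of a histone demethylase, by -0.61 ± 0.11. Apobec3, a cytidine deaminase that restricts retroviruses, read 8.76, 9.03 and 8.90 without RA and 8.29, 8.22 and 8.33 with RA (change -0.61 ± 0.11). For these 7 genes the adjusted p did not exceed 0.00704. The calls, with single arrays left out, numbered 1 to 3 for Polycomb genes, against 5 (without replicate 2 of shCT without RA or replicates 1, 2 or 3 of shCT with RA) and 3 for histone methyltransferases and demethylases, against 6 (without replicate 3 of shCT with RA). In the family of mRNA-decay proteins around Zfp36, 3 members fell, namely Zfp36 as above, Zfp36l1 (-0.64 ± 0.14) and Zfp36l2 (-0.81 ± 0.14), whereas Zfp36l3, known from placenta and yolk sac, read 4.87, 4.72 and 4.35 without RA and 6.72, 6.72 and 6.25 with RA (change 1.92 ± 0.24, adjusted p = 0.000339). Calls that ended when 1 array was left out were those of Zfp36l1 (adjusted p up to 0.107); the arrays were replicate 2 of shCT without RA and replicates 1 and 3 of shCT with RA.

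Among 48 tubulins, microtubule-associated proteins and intermediate filaments 3 rose and 6 fell. The share called was 18.8%, against 4.25% of all genes and 6.76% of those above the median level. Prph (peripherin) and Nefl (neurofilament light), intermediate filaments of neurons, read 5.29, 5.18 and 5.27 without RA and 6.53, 6.40 and 6.36 with RA for Prph (change 1.18 ± 0.13) and changed by -1.19 ± 0.16 for Nefl. The microtubule-binding genes Map1a, Map1b and Map7 changed by -0.74 ± 0.14, -0.88 ± 0.15 and 0.76 ± 0.12. The largest of their 5 adjusted p-values was 0.0073. With 1 array left out, the calls numbered 5 for this list, against 9 (without replicate 2 of shCT without RA or replicate 1 of shCT with RA). Of 62 germline and meiosis genes 6 rose and 2 fell (12.9% called). Beyond Stra8, the known RA target that starts meiosis, Rec8, the meiotic cohesin subunit, read 6.19, 5.83 and 5.90 without RA and 7.21, 6.87 and 7.40 with RA (change 1.19 ± 0.16). Mov10l1, a helicase of the piRNA pathway, changed by 0.69 ± 0.11, the germ-cell bHLH factor Sohlh2 by 1.37 ± 0.18 and the TFIID subunit Taf7l by 1.21 ± 0.21. The 8 calls became 4 without replicate 3 of shCT with RA, 1 array being left out at a time. Of 52 imprinted genes 5 rose and none fell (9.62% called), including Mest (1.08 ± 0.12) and Ddc, the enzyme that makes dopamine and serotonin (0.97 ± 0.16). The 5 calls became 2 without replicate 2 of shCT without RA and 3 without replicates 1 or 2 of shCT with RA, replicate 2 of shLOXL2 without RA or replicates 2 or 3 of shLOXL2 with RA, 1 array being left out at a time.

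MicroRNAs are cut from hairpins in longer transcripts and pair with mRNAs mainly through the seed, bases 2 to 8 from their 5′ end; several ES cell microRNAs of the miR-290, miR-302 and miR-17 families have closely related seeds. The arrays measure signal from the microRNA gene, not the mature strand, and these genes were chosen after their values were seen. Mature sequences of genes that fell, chosen to show which share a seed and which do not, are given from RefSeq (GRCm38.p6), 5′ to 3′ with the seed in capitals:
mmu-miR-18a-5p: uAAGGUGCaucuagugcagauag
mmu-miR-18b-5p: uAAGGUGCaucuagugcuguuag
mmu-miR-19a-3p: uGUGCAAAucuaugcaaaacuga
mmu-miR-19b-3p: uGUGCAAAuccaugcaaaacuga
mmu-miR-20a-5p: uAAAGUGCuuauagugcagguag
mmu-miR-20b-5p: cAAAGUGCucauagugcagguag
mmu-miR-290a-3p: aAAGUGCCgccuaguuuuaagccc
mmu-miR-302a-5p: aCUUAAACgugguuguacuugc
mmu-miR-302c-5p: gCUUUAACaugggguuaccugc
mmu-miR-302c-3p: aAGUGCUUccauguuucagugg
mmu-miR-377-3p: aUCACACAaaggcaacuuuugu
mmu-miR-382-5p: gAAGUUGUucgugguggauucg
mmu-miR-453: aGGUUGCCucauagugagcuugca
The miR-18 pair shares a whole seed, the miR-19 pair another and the miR-20 pair another, and in each pair 1 gene measured here lies on chromosome 14 and the other on the X chromosome. The 5p strands of miR-302a and miR-302c and the 3 chromosome 12 sequences (miR-377, miR-382 and miR-453) each have another seed.

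Of 483 microRNA genes measured 25 fell (5.18%, against 2.09% of all genes) and 1 rose, Mir2137 (0.59 ± 0.15), with a median of -0.11. The 1426 odorant, vomeronasal and taste receptor genes, of which 21 lay above the median level, had the same median of -0.11. Of those receptor genes 3 fell (0.21%). In shLOXL2 cells 10 of the 483 microRNA genes fell and 1 rose, and Mir2137 changed by -0.33 ± 0.15 (limma, adjusted p = 0.341). Mir18 read 7.12, 7.04 and 6.69 without RA and 6.23, 5.93 and 5.89 with RA (change -0.94 ± 0.18), and its relative on the X chromosome, Mir18b, read 8.59, 8.01 and 7.38 without RA and 6.95, 6.44 and 6.12 with RA (change -1.49 ± 0.30). In the chromosome 14 cluster that runs from Mir17 to Mir20a, 3 of 4 measured genes fell (median -0.94), and in the related X cluster from Mir363 to Mir18b 3 of 5 (median -0.77). In the miR-302 cluster on chromosome 3, 2 of 5 fell, and Mir302a read 3.15, 3.98 and 3.01 without RA and 2.46, 2.25 and 1.71 with RA (change -1.24 ± 0.25). These levels are near the low end of the arrays, where the odorant receptor list had medians of 2.75 to 3.01 on the shCT arrays. In shLOXL2 cells Mir302a changed by -0.03 ± 0.25 (limma, adjusted p = 0.977). Mir290a read 8.64, 8.65 and 8.87 without RA and 7.61, 7.84 and 7.96 with RA (change -0.92 ± 0.14). The group with most calls was the long cluster on chromosome 12 from Mir673 to Mir409, in the imprinted region of Meg3 and Rian, where 13 of 43 fell, 40 lay below 0 and the median was -0.56. For example, Mir377 read 4.73, 4.15 and 4.56 without RA and 2.95, 3.31 and 3.37 with RA (change -1.27 ± 0.17). Several of the chromosome 12 calls were also near the low end, with means with RA of 1.72 for Mir376c, 2.50 for Mir154 and 2.60 for Mir379. Mir493 and Mir1197 passed narrowly (limma, adjusted p = 0.0498 for each). Of the chromosome 12 calls, only Mir377, Mir382, Mir453 and Mir487b also passed in shLOXL2 cells. The long non-coding RNAs of the imprinted region did not pass, with Rian at -0.94 ± 0.25 (adjusted p = 0.0503) and Meg3 at -0.33 ± 0.17 (adjusted p = 0.375). Genes of a cluster can share a primary transcript, so they are not independent of each other.

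By seed, 16 of 1738 mature sequences in the table hold AAGUGC within bases 2 to 8; 9 of their genes were measured, 8 lay below 0 and 3 fell. GUGCAA was held by 10, of whose 6 measured genes 2 fell, and AAGGUGC by the 2 miR-18 sequences, whose genes both fell. The 26 microRNA calls became 15 without replicate 3 of shCT with RA, 16 without replicates 1 or 2 of shCT with RA and 17 without replicate 2 of shCT without RA, 1 array being left out at a time. With both shCT arrays numbered 3 left out, 12 microRNA genes fell. Array weights gave 86 falls and 24 rises, and a replicate block within each construct gave 42 and 1. Fitting shCT arrays alone gave 17 and 0, and the 88 microRNA genes above the median level alone gave 10 and 1. No microRNA gene passed when a fold of at least 1.5 was required. The adjusted p passed the threshold upwards for Mir20a (adjusted p up to 0.0633), Mir20b (adjusted p up to 0.0751), Mir18b (adjusted p up to 0.0589), Mir19b-2 (adjusted p up to 0.08), Mir302a (adjusted p up to 0.0596), Mir302c (adjusted p up to 0.137), Mir23a (adjusted p up to 0.105) and Mir2137 (adjusted p up to 0.189) when 1 array was left out, namely replicates 1, 2 and 3 of shCT without RA, replicates 1, 2 and 3 of shCT with RA, replicate 2 of shLOXL2 without RA and replicates 1, 2 and 3 of shLOXL2 with RA. The small nucleolar and nuclear RNA genes, which are also short, had a median change of -0.29 with 1 of 85 genes picked by symbol called, while 3 of 80 genes that the annotation classes as snoRNA fell and none rose; the difference between the groups' median levels was -0.365 (exact permutation test, two-sided p = 0.4, where 3 arrays against 3 can give no less than 0.1). The part of short-RNA signal in the microRNA values was not tested. Of the 14 Platr genes, long non-coding RNAs named for their link to the pluripotent state and also chosen after their values were seen, 5 fell and none rose (median -0.33), including Platr6 (-1.37 ± 0.17), Platr8 (-1.02 ± 0.17) and Platr10 (-1.22 ± 0.17).

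**Figure D4:**
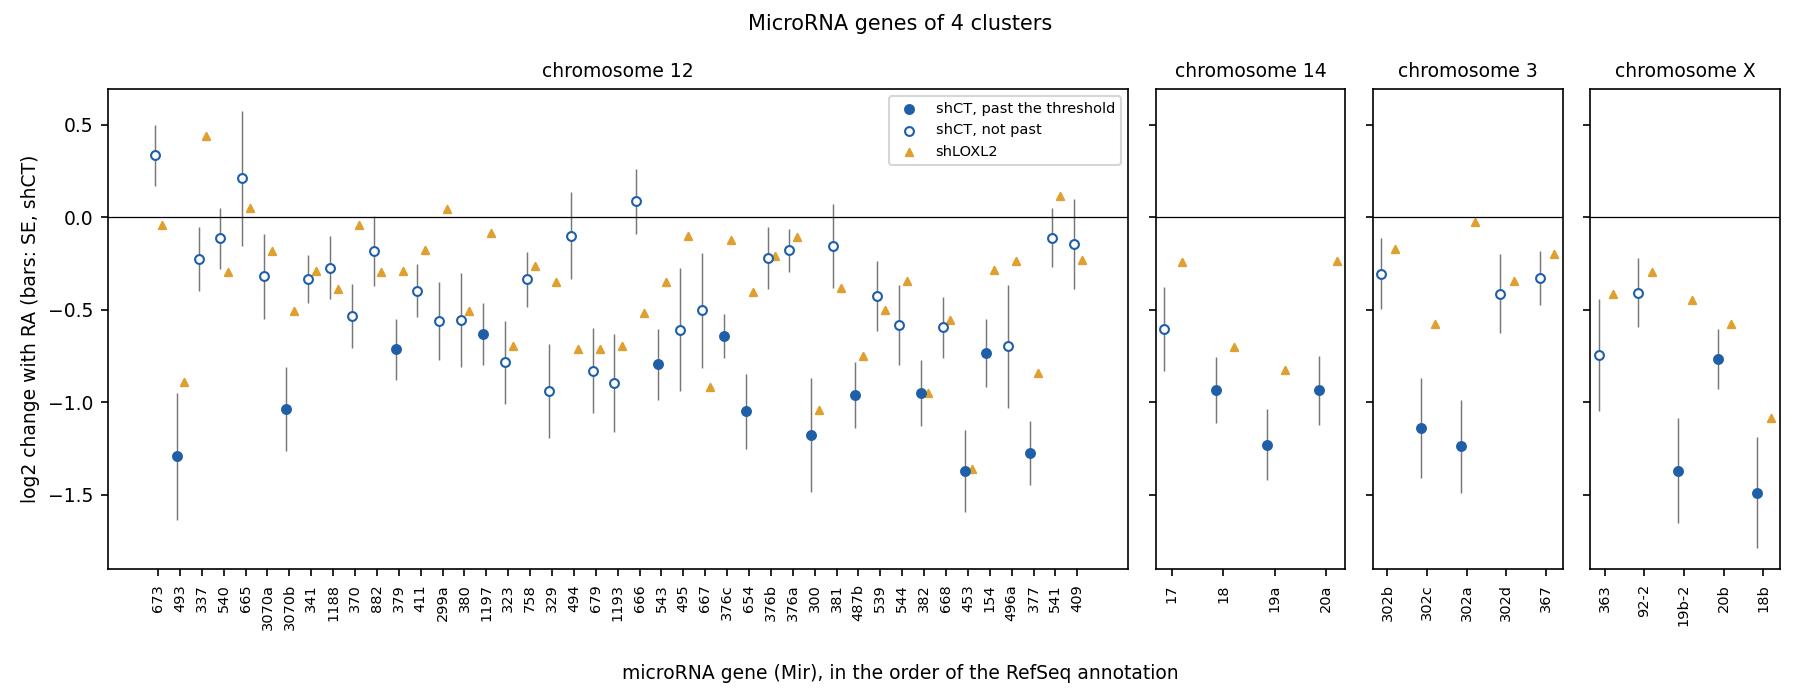
Change with RA in shCT cells (y axis, log2 ± standard error) for each measured gene of the microRNA clusters with most calls, in the order of the annotation (x axis); filled points passed the threshold, open points did not, and triangles are the changes in shLOXL2 cells. Most points lie below 0, with 13 of 43 called on chromosome 12, 3 of 4 on chromosome 14, 3 of 5 on the X chromosome and 2 of 5 on chromosome 3.

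Markers of the lineages these cells could form gave 1 to 3 calls a list, from lists of 13 to 29 genes. Of neural progenitor markers 3 of 29 rose (10.3%, against 2.16% of all genes) and none fell, including Msi1, an RNA-binding protein of neural stem cells (0.90 ± 0.13). In shLOXL2 cells 1 of the 29 rose and 2 fell (median 0.03, against 0.15 in shCT cells). The other rises in shCT cells, Sox1 and Irx3, did not pass in shLOXL2 cells (limma, adjusted p = 0.233 and 0.187). Leaving out 1 array changed the number of calls to 1 for the neural list, against 3 (without replicate 2 of shCT without RA or replicates 1 or 2 of shCT with RA) and 1 for the primitive endoderm list described next, against 3 (without replicate 1 of shCT with RA). The other lists gave mesoderm (1 of 20 rose), gut endoderm (2 of 17, or 11.8%), trophectoderm (1 rose and 1 fell of 19, or 10.5% called against 4.25% of all genes), neural crest (1 of 13 fell), blood and endothelium (1 of 22 rose), heart and muscle (1 of 15) and fibroblasts (1 of 23). In bulk RNA, more cells of a type and more RNA per cell cannot be told apart. Of 26 primitive and extraembryonic endoderm markers 2 rose and 1 fell (11.5% called; 2 and 2 with centred arrays). Gata6, a defining factor of primitive endoderm, read 7.61, 6.83 and 6.61 without RA and 8.70, 8.19 and 7.98 with RA (change 1.27 ± 0.24, adjusted p = 0.00869), and Plat, a plasminogen activator, changed by 1.01 ± 0.18. Single arrays decided the calls of Gata6 (adjusted p up to 0.0509), and those arrays were replicate 2 of shCT without RA and replicate 1 of shCT with RA. These markers were present before RA: 20 to 22 of the 26 lay above the array median on each shCT array. Their list medians were 6.90, 5.95 and 5.68 without RA and 6.85, 6.37 and 6.08 with RA, highest on the arrays numbered 1 of both groups. Cubn, an uptake receptor of visceral endoderm, followed the same order at 8.88, 7.39 and 6.97 without RA and 8.47, 7.21 and 6.73 with RA, so it varied more between replicates than between times. The part of such cells in the changes of other genes was not tested.

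The cells carrying shLOXL2 gave a reading of the same treatment under another hairpin, on separate arrays. Both tests used the same spread per gene, estimated from all 12 arrays, so calls shared by both are not independent. There 768 genes passed (3.46%), 455 rising (2.05%) and 313 falling (1.41%). With a replicate block within each construct the count was 1624, and with centred arrays 47.1% of the calls rose, against 59.2% as deposited. Without these changes, 557 genes passed in both, which is 59.1% of the shCT calls and 72.5% of the shLOXL2 calls. Of the 943 shCT calls, 930 had the same sign in shLOXL2 cells and 13 the opposite. The share with the same sign over all genes was not counted. The test of the difference between both responses called no gene (0%, limma, lowest adjusted p = 1). Of 22180 genes, 652 had an unadjusted p under 0.05. That share is below the 0.05 that such a threshold would give on average with no difference in any gene. The standard error of the difference had a median of 0.209 over the called genes, so the intervals are wide. The intervals given next for Egr1 and Klk1 are not adjusted for the number of genes, and neither difference passed after adjustment. Egr1 fell by 2.12 ± 0.15 in shCT cells and changed by -1.28 in shLOXL2 cells, a difference of 0.84 (95% interval 0.38 to 1.29), and Klk1 changed by -2.46 ± 0.18 and -3.38, a difference of -0.92 (95% interval -1.46 to -0.38). Jag1 changed by -1.12, Spry4 by -0.72, Ddx58 by -1.79, Stat3 by -0.30 and Smad6 by 1.21 in shLOXL2 cells. On chromosome 12 the microRNA cluster had a median of -0.34 there, against -0.56 in shCT cells.

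**Figure D5:**
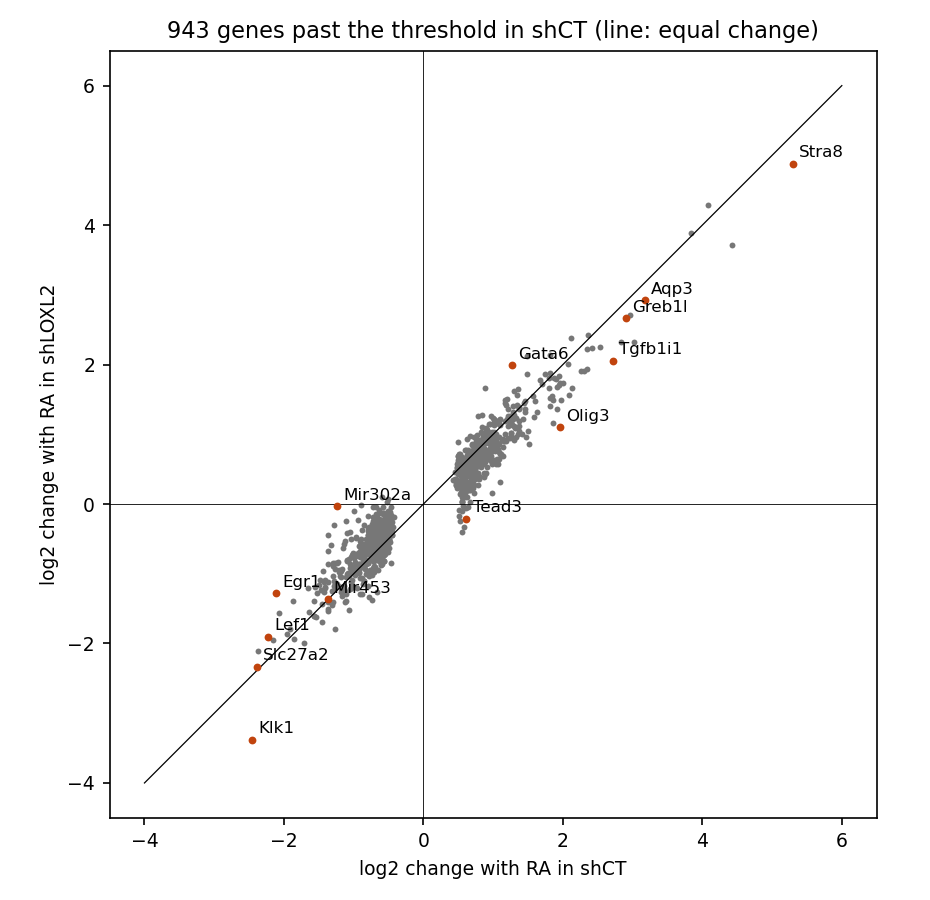
Change with RA in shLOXL2 cells (y axis, log2) against the change in shCT cells (x axis, log2) for the 943 genes called in shCT cells; the line marks equal change. Of these, 930 have the same sign in both and 13 do not, and the difference called no gene.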

How the data were processed

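RNA for 12 arrays, 4 groups of 3, was hybridised to Affymetrix whole-transcript arrays from 100 ng of total RNA, per the labels' protocols. The values deposited by the authors are log2 signals per transcript cluster. The submitters' processing notes list R 3.1.1, RMA and limma without saying which step each served. RMA sums probes after background correction and quantile normalization, which takes most genes as unchanged. Arrays have no read depth; the number of arrays limits the precision.

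Clusters were named by the platform annotation, those with 1 gene symbol were kept, and a gene with several clusters was represented by its brightest, leaving 22180 genes. limma 3.58.1 in R 4.3.3 was fitted to all 12 arrays with 4 group means and no covariates, with Benjamini-Hochberg adjustment and a threshold of 0.05. The shared spread of all 12 arrays thus enters each shCT test. The script was tested on simulated data. The fit has no replicate block: deviations of same-numbered arrays correlated at 0.363, 0.039 and 0.631 in shCT, not all above 0.1. In shLOXL2 they correlated at 0.558, 0.248 and 0.216, and a blocked count for shLOXL2 is given beside its result. Differently numbered shLOXL2 arrays reached 0.369, so these values alone did not show pairing. The members and the 129 gene lists were chosen with earlier results of these data known. Outside the marker lists, the naming rule that follows took only calls with groups that did not overlap, which every call met. Genes were named from the 12 largest changes each way, the 4 genes with the smallest p of each list with 3 or more calls and 3 of each marker list, with preference for calls that held without each array; any other gene was chosen after its values were seen. Alternatives covered array centring, a second normalization, dim genes, cluster choice, array weights, variance model, a fold threshold, the replicate block, the construct fitted alone and each array left out. Sequences are RefSeq's for GRCm38.p6; no genome was used here.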

Additional observations from a re-analysis of the deposited data

Results flagged for a closer look

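Tead3, a TEAD transcription factor of the Hippo pathway, is listed here because its changes had opposite signs under the 2 hairpins. Only the rise in shCT cells passed the threshold. In shCT cells it read 5.03, 5.23 and 5.08 without RA and 5.74, 5.90 and 5.54 with RA, a change of 0.61 ± 0.13, and every array with RA was above every array without. In shLOXL2 cells the change was -0.21 ± 0.13 and did not pass (limma, adjusted p = 0.545), although every array with RA was below every array without. In the shCT comparison 21.2% of all genes had groups that did not overlap. The difference was -0.82 (95% interval -1.23 to -0.41, unadjusted p = 0.000763 from limma), but its adjusted p over all genes was 1. The call in shCT cells ended when replicate 1 or 3 at day 0 was dropped (adjusted p = 0.0579 and 0.0502), or replicate 1 or 2 at day 1 (adjusted p = 0.0721 and 0.098).

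Transcript clusters that carry several gene names or none were left out of the gene table, and 107 of them passed the threshold in shCT cells, 22 of 1814 with several names (1.21%) and 85 of 16010 with no name (0.531%). The unnamed cluster 17466798 changed by 4.05 and cluster 17520624 by 2.96, while cluster 17307638 changed by -2.67. Cluster 17209911 changed by -2.54 in shCT cells and by 0.038 in shLOXL2 cells. No gene can be given for them here.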

How the results depend on the processing

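No single gene recomputed under the alternatives changed sign, but balances of rises and falls did: with centred arrays 27.9% of shCT calls and 47.1% of shLOXL2 calls rose, against 50.9% and 59.2%, and without replicate 1 of shLOXL2 without RA 48.8% of shLOXL2 calls did. For RA in shCT cells (943 calls as reported), array weights gave 5224 calls, requiring a fold of at least 1.5 gave 92, fitting shCT arrays alone 599, and leaving out both shCT arrays numbered 3, chosen after seeing the data, 441. For shLOXL2 cells (768), array weights gave 2663 and the fold requirement 81. With 1 array left out the counts ran from 483 to 1049 in shCT and from 444 to 916 in shLOXL2. The difference between the responses called no gene in any fit. With 1 replicate block for all arrays the calls numbered 740 and 658; with a replicate block within each construct they numbered 1800 and 1624. Every other setting stayed within 1.5 times of the reported counts. The labels do not say what a number marks. Deviations of same-numbered arrays correlated at 0.363, 0.039 and 0.631 in shCT and at 0.558, 0.248 and 0.216 in shLOXL2. Differently numbered arrays reached 0.318 in shCT (replicate 1 without RA, 2 with RA) and 0.369 in shLOXL2 (replicate 3 without RA, 2 with RA). The numbers were thus not shown to pair the arrays in either construct. The cause of these shifts was not tested. Dim genes limit detection, with 1.74% called below the median level.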

Other observations

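Receptors named Gpr or Adgr and cytokine genes were called at shares near or below the 4.25% of all genes, so the genes named here are single examples. Of 94 such receptors 4 rose and none fell (4.26% called), but with arrays centred on their medians 3 rose and 3 fell. Adgra2, an adhesion receptor that assists Wnt7 signalling in brain vessels, read 5.70, 5.57 and 5.52 without RA and 6.86, 6.78 and 6.75 with RA (change 1.20 ± 0.14, adjusted p = 0.000275 by limma). Gprc5a, an orphan receptor known as a retinoic acid-induced gene, read 6.27, 5.79 and 6.07 without RA and 7.21, 6.88 and 6.85 with RA (change 0.94 ± 0.16, adjusted p = 0.00432 by limma). Of 169 chemokine, interleukin and TNF-family genes 4 rose and 1 fell (2.96% called). Il33, a nuclear alarmin of the interleukin 1 family, read 4.50, 4.42 and 4.31 without RA and 5.92, 5.90 and 5.53 with RA (change 1.38 ± 0.17), and Tnfrsf19, a receptor of the TNF family also called TROY, read 5.42, 5.55 and 5.62 without RA and 6.58, 6.45 and 6.25 with RA (change 0.90 ± 0.14). Of 41 apoptosis regulators 2 rose and 1 fell (7.32% called; 1 and 1 with centred arrays), with the survival gene Mcl1 at 0.65 ± 0.12 and the death agonist Bid at -0.68 ± 0.12.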
